A study of Mus musculus with 4 samples.

Results

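The replication-dependent histone genes encode the core histones H2A, H2B, H3 and H4 and the linker histone H1, and were taken here as all genes of the array whose accession maps to a mouse symbol or synonym beginning with Hist1h, Hist2h, Hist3h or Hist4h. The gene table holds 70 such genes, of which 48 had a probe on the array, 52 probes in all of 56605. By class these were 6 H1, 14 H2A, 12 H2B, 7 H3 and 9 H4 genes. By gene cluster, 38 belonged to Hist1 on chromosome 13, 7 to Hist2 on chromosome 3, 2 to Hist3 on chromosome 11 and 1 was Hist4h4 on chromosome 6. A gene was tested where the scanner software marked its probe as well above background on both arrays of 1 genotype or of both. That kept 45 of the 48, and 26378 genes in all, which include transcripts with no symbol.

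The study measured RNA of isolated pancreatic islets, the endocrine clusters that hold the insulin-producing beta cells, on Agilent arrays of a single colour. Rb-deficient islets came from 2 mice of the genotype Pdx1-Cre:Rbf/f, in which the Cre recombinase acts on floxed alleles of the retinoblastoma gene Rb1. Wild-type islets, as the titles call them, came from 2 Pdx1-Cre mice, so all 4 mice carried the Cre transgene. The Pdx1 promoter is active in the pancreatic lineage, so non-pancreatic cells of an islet preparation, such as vessel and immune cells, are not its target. The labels used here give neither age nor sex, and each mouse supplied 1 array.

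Histone genes of this kind are transcribed chiefly in S phase, when newly made DNA must be packed into nucleosomes. An octamer of core histones carries each nucleosome, and H1 binds the linker DNA between nucleosomes. Their mRNAs have no introns and most end in a stem-loop in place of a poly(A) tail. Cyclin E with Cdk2 activates the coactivator NPAT at histone gene clusters, and the stem-loop binding protein SLBP guides the end processing, export and translation of the mRNA. Rb restrains E2F factors and with them the entry into S phase. How well these arrays capture mRNAs without a poly(A) tail was not tested, so the histone signals may not follow S phase here.

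Promoter sequences of 40 of the 45 tested histone genes were in a RefSeq table of the GRCm38.p6 build. The 250 bases before the start of transcription were searched on both strands for CCAAT, for the TATA box as TATAAA, for the octamer ATTTGCAT that Oct factors bind, and for TTTCGCGC or TTTGGCGC as E2F sites. CCAAT stood in 34 of 40 (85%) histone promoters, against 34.5% of all 27025 promoters of the table. It was in every H1, H2A, H2B and H3 promoter searched but in only 2 of 8 H4 promoters. TATAAA was in 20 of 40 (50%) and in 13% of all promoters, and the octamer in 5 of 12 H2A and 4 of 10 H2B promoters and in 1.61% of all. An E2F letter match was in 5 of 40 (12.5%) and in 0.673% of all promoters. Tested histone genes with and without the E2F match had median log2 differences between the genotypes of 0.20 (n = 5) and 0.08 (n = 35). Windows of neighbours that start head to head can overlap, as those of H2ac23 and H2bc23 do, so a match may be counted for both genes. Among the 5, H2ac22 and H2bc22 are such neighbours, with differences of 0.20 and -0.55. A letter match is no evidence of binding. The promoters below belong to H2ac4, the histone gene with the largest difference upward, to H2bc3, the H2B gene next to it on the same strand, and to the pair H2ac23 and H2bc23, whose starts lie 168 bases apart on opposite strands and whose differences had opposite signs. All run 5′ to 3′ on the + strand, with the matches in capitals.
H2ac4, chr13:23750838-23751087: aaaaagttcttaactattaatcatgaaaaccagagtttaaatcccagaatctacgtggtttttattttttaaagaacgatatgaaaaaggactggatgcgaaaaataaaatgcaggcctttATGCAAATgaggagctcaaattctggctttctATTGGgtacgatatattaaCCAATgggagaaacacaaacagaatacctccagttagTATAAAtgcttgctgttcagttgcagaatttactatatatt
H2bc3, chr13:23746484-23746733: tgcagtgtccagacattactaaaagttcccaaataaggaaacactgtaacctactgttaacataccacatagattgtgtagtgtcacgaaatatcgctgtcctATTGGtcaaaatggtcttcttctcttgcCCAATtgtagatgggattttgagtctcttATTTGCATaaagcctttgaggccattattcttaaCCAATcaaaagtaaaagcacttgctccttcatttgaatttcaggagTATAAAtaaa
H2ac23 and H2bc23, the bases between their starts, chr13:21810200-21810366: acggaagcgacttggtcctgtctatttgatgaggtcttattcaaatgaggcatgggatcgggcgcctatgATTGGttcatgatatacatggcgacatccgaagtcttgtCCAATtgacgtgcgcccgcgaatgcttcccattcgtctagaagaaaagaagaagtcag
The H2ac4 stretch held 2 CCAAT matches, 1 octamer and 1 TATAAA, and the H2bc3 stretch held 3, 1 and 1. The stretch between H2ac23 and H2bc23 held 2 CCAAT matches, no octamer and no TATAAA. None of the 3 stretches held the E2F letters.

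Signals are log2 values set against the 75th percentile of their own array (control spots left out), so 0 is the level of that percentile. Wild-type array 1 stood apart. There 76.5% of probes were well above background, against 59.9% and 59.0% on the Rb-deficient arrays and 59.4% on wild-type array 2. It alone had Y-linked signal, 1.15 for Eif2s3y, where the Rb-deficient arrays had -7.17 and -7.39 and wild-type array 2 had -7.15, none of them well above background. Genotype and sex are therefore not balanced, and results are given with and without that array. Rb1 itself had -0.48 and -0.90 in Rb-deficient islets, against 0.28 and 0.86 in wild-type islets, a difference of -1.26 (SE 0.31). Its adjusted p was 0.735 in limma with Benjamini-Hochberg adjustment, and whether the probe lies in the deleted part is not known here. All 13 beta cell markers were measured, with 7 higher and a median difference of 0.11, and their summed linear signals, relative to the 75th percentile, were 3431 and 2453 in Rb-deficient islets, against 3538 and 3171 in wild-type islets. Acinar markers, from the exocrine tissue around islets, were all lower, 19 of 19, with a median of -0.86 and summed signals of 9329 and 5298 in Rb-deficient islets, against 13090 and 10610 in wild-type islets. Of 20 macrophage and dendritic markers 19 were higher, with a median of 0.79 and summed signals of 62.4 and 66.4 in Rb-deficient islets, against 54.3 and 55.9 in wild-type islets. The brightest of them, Itgam, weighed most in these sums and was the one marker that was lower. It had 5.23 and 4.43 in Rb-deficient islets, against 5.15 and 5.05 in wild-type islets. Alpha cell markers were lower in 6 of 7 measured, with a median of -0.78 and summed signals of 733.2 and 348.2 in Rb-deficient islets, against 837.4 and 860.8 in wild-type islets. Ductal markers were lower in 8 of 10, with a median of -0.48. The part of such cells in the histone values was not tested. In RNA of whole islets, fewer cells of a type and less RNA per cell cannot be told apart.

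Replication-dependent histone genes differed little between the genotypes. Of the 45 tested, 33 were higher and 12 lower in Rb-deficient islets, and their median log2 difference was 0.08, a 1.06-fold difference, where the median of all genes was -0.07 and 41.9% of all genes were higher. No histone gene was called by limma, whose Benjamini-Hochberg adjusted p values ran from 0.827 to 0.999 for them, and 0% of all genes were called. Each mouse gave 1 array, so these p values rest on a spread that mixes mouse, sex and array. In limma that spread is also drawn in part from all genes. At an unadjusted p under 0.05, 1 histone gene was higher and 2 were lower, against 1.48% and 4.18% of all genes. Both Rb-deficient arrays lay above both wild-type arrays for 8 histone genes (17.8%) and below for 6 (13.3%), close to the 15.3% and 20.7% of all genes. A difference of at least 2-fold was seen upward in 1 (1.7% of all genes) and downward in 2 (8.03% of all genes). The median shift of the 45 genes from the wild-type mean was 0.01 and 0.17 on the Rb-deficient arrays, against -0.11 and 0.11 on the wild-type arrays, so the groups overlapped. Without wild-type array 1 the median difference was -0.06, with 17 of 45 higher, and without wild-type array 2 it was 0.20. It was 0.17 without Rb-deficient array 1 and 0.01 without Rb-deficient array 2.

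The precision of these differences is set by 2 arrays a group. Standard errors lay between 0.18 and 0.66 for 44 of the 45 genes and reached 1.47 for H1f6. In 30 of 45 genes the difference was smaller than its standard error. The 95% interval of limma's difference included 0 for 42 genes. Such an interval leaves out 0 where limma's unadjusted p is under 0.05, as for 1.48% of all genes upward and 4.18% downward. The absolute difference was under 0.5 in 37 of 45 (82.2%), against 72.7% of all genes. For the other counts of this paragraph the shares of all genes were not computed. For 34 genes the whole interval lay below 1.02, the median difference of the S phase genes described further on. Without its share of all genes, this count does not set histone genes apart. The S phase median was itself 0.76 without Rb-deficient array 2.

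**Figure D1:**
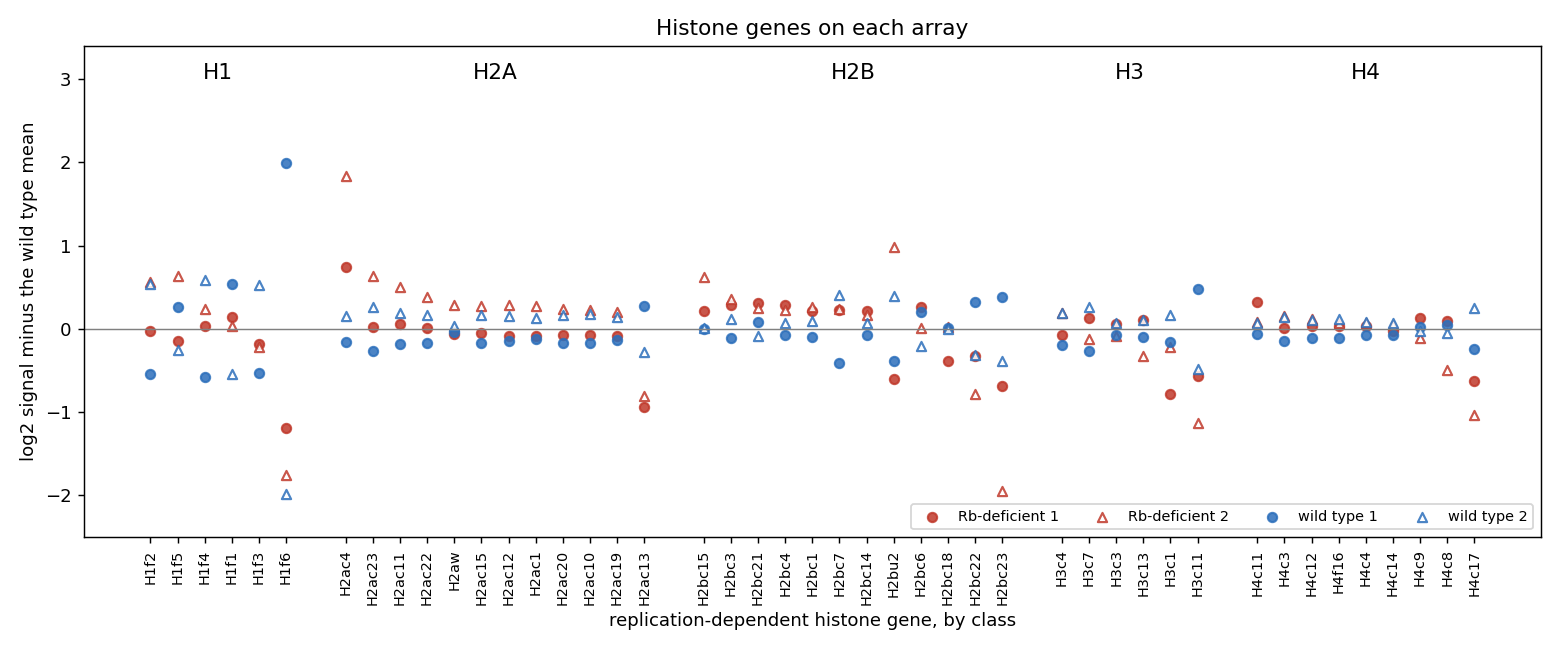
Log2 signal of each tested histone gene on each array, minus the mean of both wild-type arrays, by class (red, Rb-deficient; blue, wild type; circles, replicate 1; triangles, replicate 2). Of the 39 H2A, H2B, H3 and H4 genes 29 lie within 0.5 of 0 on all 4 arrays, H2ac4 lies above it on both Rb-deficient arrays, and H1f6 is high on wild-type array 1 alone.

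Linker histone genes gave differences in both directions, with no gene called. Of the 6, 4 were higher in mean, the median was 0.11, and in no gene were the groups separated. H1f2 (Hist1h1c), a somatic H1 present in many tissues, had -0.02 and 0.58 in Rb-deficient islets, against -0.53 and 0.55 in wild-type islets. H1f4 (Hist1h1e), another common somatic H1, had 1.70 and 1.90 in Rb-deficient islets, against 1.08 and 2.24 in wild-type islets. In both genes the wild-type arrays lay on either side of at least 1 Rb-deficient array.

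H1f5 (Hist1h1b), a somatic H1 typical of dividing cells, had -2.91 and -2.13 in Rb-deficient islets, against -2.51 and -3.02 in wild-type islets, a difference of 0.24 (SE 0.38). The groups overlapped, with Rb-deficient array 2 the highest. H1f3 (Hist1h1d) was at -2.02 and -2.04 in Rb-deficient islets, against -2.36 and -1.30 in wild-type islets, and H1f1 (Hist1h1a) differed by 0.08.

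The testis H1 gene H1f6 (Hist1h1t), which is normally made in male germ cells, had -4.40 and -4.96 in Rb-deficient islets, against -1.21 and -5.19 in wild-type islets. Its difference of -1.48 (SE 1.47) was the lowest of all histone genes and came from wild-type array 1. On wild-type array 2 it was not well above background, and without wild-type array 1 the difference was 0.51. Without wild-type array 2 it was -3.47 and was called (limma, Benjamini-Hochberg adjusted p 0.0396), in a fit that called 4090 genes and takes the lone wild-type array to vary like the Rb-deficient ones.

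H2A genes were higher in 11 of 12, with a median of 0.11, and 10 of those 11 differed by 0.33 or less, H2ac4 being the other. H2ac4 (Hist1h2ab) had 0.55 and 1.65 in Rb-deficient islets, against -0.35 and -0.03 in wild-type islets. Both Rb-deficient arrays were above both wild-type arrays, and Rb-deficient array 2 was the farthest from them. The difference was 1.29 (SE 0.44), or 2.44-fold, with an unadjusted p of 0.047 and an adjusted p of 0.863 (limma, Benjamini-Hochberg). It was 1.13 without wild-type array 1 and 1.45 without wild-type array 2, but 0.74 without Rb-deficient array 2. It was the only H2A gene whose Rb-deficient arrays both lay above both wild-type arrays.

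H2ac23 (Hist1h2ao or Hist1h2ap) had 3.60 and 4.22 in Rb-deficient islets, against 3.32 and 3.85 in wild-type islets, and a difference of 0.33 (SE 0.34). H2ac11 (Hist1h2ag) had 4.48 and 4.92 in Rb-deficient islets, against 4.24 and 4.61 in wild-type islets. In both genes the groups overlapped, and without wild-type array 1 the differences were 0.06 for H2ac23 and 0.09 for H2ac11. H2ac1, H2ac10, H2ac12, H2ac15, H2ac19, H2ac20, H2ac22 and H2aw had differences of 0.06 to 0.20. H2ac1 (Hist1h2aa), known as a testis H2A gene, was at 5.71 and 6.07 in Rb-deficient islets, against 5.67 and 5.93 in wild-type islets, well above background on all arrays. Coding sequences of H2A genes are nearly the same, so which of these genes a probe reads is uncertain, and this was not tested.

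The arrays ranked alike in most H2A genes. In 9 of 12 (75%) the order was Rb-deficient array 2, wild-type array 2, Rb-deficient array 1 and wild-type array 1, highest first, an order that 7.17% of all genes had. As which H2A gene a probe reads is uncertain, these 9 may not be separate readings, nor may the higher H2A genes counted above. The median H2A shift from the wild-type mean was -0.07 on Rb-deficient array 1 and 0.28 on array 2, with -0.16 and 0.16 on the wild-type arrays. Without wild-type array 1 the H2A median was -0.04, with 5 of 12 higher, and without Rb-deficient array 2 it was -0.07. The single lower gene was H2ac13 (Hist1h2ai), with -2.85 and -2.72 in Rb-deficient islets, against -1.63 and -2.19 in wild-type islets. Its groups did not overlap, and the difference was -0.88 (SE 0.27, adjusted p 0.827 in limma). With normexp background correction it was -0.56.

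H2B genes had the highest median of the 5 classes, 0.21, with 9 of 12 higher. Both Rb-deficient arrays were above both wild-type arrays in 6 of 12 (50%, against 15.3% of all genes), and these were H2bc1, H2bc3, H2bc4, H2bc14, H2bc15 and H2bc21, all with differences under 0.5. H2bc15 (Hist1h2bn) had 2.90 and 3.32 in Rb-deficient islets, against 2.69 and 2.70 in wild-type islets, a difference of 0.42 (SE 0.23). H2bc3 (Hist1h2bb) had 3.66 and 3.73 in Rb-deficient islets, against 3.26 and 3.48 in wild-type islets, a difference of 0.32 (SE 0.19). H2bc21 (Hist2h2be), a gene of the Hist2 cluster, had 1.64 and 1.59 in Rb-deficient islets, against 1.42 and 1.25 in wild-type islets. The groups of each did not overlap, and the fold changes were 1.34, 1.25 and 1.21. Without Rb-deficient array 2 the H2bc15 difference was 0.21, and without wild-type array 1 the H2bc3 difference was 0.21. H2bc1 (Hist1h2ba), known as a testis H2B gene, was 1.18-fold higher. Its signals were 3.04 and 3.09 in Rb-deficient islets, against 2.73 and 2.93 in wild-type islets. Without wild-type array 1 the H2B median was 0.13, with 7 of 12 higher. H2B genes too share most of their coding sequence, so these 6 may not be separate readings.

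The 3 lower H2B genes had low signals. H2bc23 (Hist1h2bq) had -3.87 and -5.14 in Rb-deficient islets, against -2.80 and -3.57 in wild-type islets, and H2bc22 (Hist1h2bp) had -3.81 and -4.27 in Rb-deficient islets, against -3.17 and -3.81 in wild-type islets. Both Rb-deficient arrays were below both wild-type arrays in each, with differences of -1.32 (SE 0.56) and -0.55 (SE 0.33), and in H2bc22 the nearest arrays nearly touched. Without wild-type array 1 the differences were -0.94 for H2bc23 and -0.23 for H2bc22, and without Rb-deficient array 2 they were -0.69 and -0.32. With normexp they were -0.51 and -0.30, and with quantile normalization -0.80 and -0.02. H2bc18 (Hist2h2bb) differed by -0.18 with overlapping groups. H2bc6, H2bc7 and H2bu2 were higher by 0.14, 0.23 and 0.19, also with overlapping groups, and H2bu2 had the widest spread of the class, -0.81 and 0.77 in Rb-deficient islets, against -0.60 and 0.18 in wild-type islets.

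H3 genes had the lowest median of the classes, -0.06, with 2 of 6 higher and none separated upward. H3c4 (Hist1h3d) had 3.48 and 3.74 in Rb-deficient islets, against 3.36 and 3.75 in wild-type islets. H3c3 (Hist1h3c) had 1.44 and 1.30 in Rb-deficient islets, against 1.31 and 1.46 in wild-type islets. The groups of each lay over one another, and H3c7 (Hist1h3f) and H3c13 (Hist2h3b) differed by 0.001 and -0.11. H3c11 (Hist1h3i) had -3.52 and -4.09 in Rb-deficient islets, against -2.48 and -3.44 in wild-type islets, a difference of -0.85 (SE 0.44). H3c1 (Hist1h3a) had -4.98 and -4.42 in Rb-deficient islets, against -4.36 and -4.03 in wild-type islets. In these 2 genes of low signal the Rb-deficient arrays were below both wild-type arrays, by a gap of under 0.1. With normexp they differed by -0.38 (H3c11) and -0.18 (H3c1), and with quantile normalization by -0.46 and 0.46, a turn of sign for H3c1. The H3c11 difference was -0.37 without wild-type array 1, and without Rb-deficient array 1 the H3c1 difference was -0.22. The H3 median was -0.24 without wild-type array 1, with 0 of 6 higher.

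H4 genes, which all encode the same core protein or nearly so, had the tightest values. Of 9, 7 were higher, with a median of 0.05. H4c11 (Hist1h4j) had 0.53 and 0.29 in Rb-deficient islets, against 0.15 and 0.28 in wild-type islets, a difference of 0.20 (SE 0.20) with separated groups. H4c12 (Hist1h4k) had 4.68 and 4.76 in Rb-deficient islets, against 4.54 and 4.76 in wild-type islets, and H4c3 (Hist1h4c) had -0.44 and -0.30 in Rb-deficient islets, against -0.60 and -0.31 in wild-type islets. Their groups all but coincided. H4c4, H4c9, H4c14 and H4f16 differed by 0.01 to 0.05, and H4c8 by -0.20. H4c17 (Hist1h4m) had -2.82 and -3.23 in Rb-deficient islets, against -2.44 and -1.95 in wild-type islets, a difference of -0.83 (SE 0.29, adjusted p 0.863 in limma), and its groups did not overlap. With normexp it was -0.48. Without wild-type array 1 the H4 median was -0.06, with 2 of 9 higher.

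In 3 of the 4 genes with more than 1 probe the probes gave like differences. The probes of H2bc21 each differed by 0.28, those of H4c12 by 0.07 and 0.08, and those of H4c4 by 0.05 and 0.04. Those of H2bc3 differed by 0.32 and 0.13. The dimmer H2bc3 probe had -2.60 and -2.93 in Rb-deficient islets, against -2.88 and -2.90 in wild-type islets, so its groups overlapped where those of the brighter probe did not. The 3 genes outside the test were H2ac7, H2ac21 and H3c8, none of which passed the background mark on 2 arrays of the same genotype. H2ac7 was well above background on Rb-deficient array 1 and wild-type array 1, H2ac21 and H3c8 on wild-type array 1 alone.

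With all 4 arrays the direction followed the signal. Of 14 histone genes with a mean signal below -1, 4 were higher and the median was -0.35. Of all 13263 genes in that range 3460 were higher, with a median of -0.32. Of 15 between -1 and 3, 13 were higher with a median of 0.14. Of all 9970 genes there 5746 were higher, with a median of 0.04. Of 16 above 3 all were higher in mean, by 0.01 to 0.33 with a median of 0.09. Of all 3145 genes there 1846 were higher, with a median of 0.04. Most of the 16 are H2A or H2B genes, whose probes may not be separate readings. Of the 12 lower histone genes 10 had a mean signal below -1. Without wild-type array 1 the medians were -0.25, 0.04 and -0.04 from the dim to the bright range, against -0.12, 0.01 and 0.03 for all genes. No spot was saturated on any array.

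**Figure D2:**
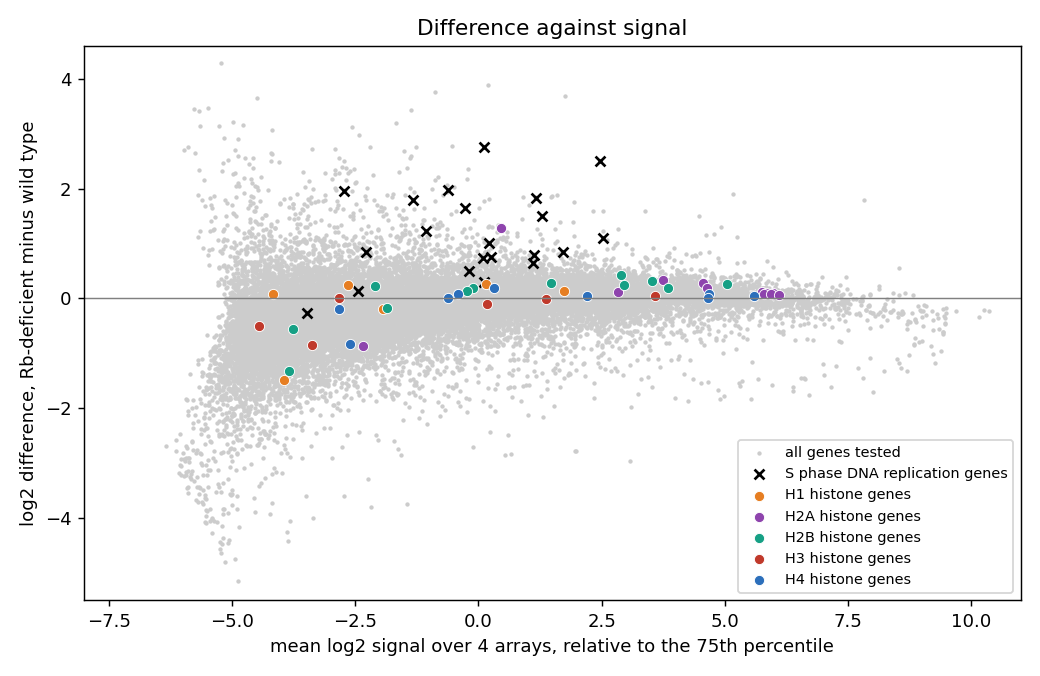
Log2 difference (Rb-deficient minus wild type) against the mean log2 signal over the 4 arrays for all 26378 genes tested (grey), the histone genes by class (colours) and the 21 S phase genes (crosses). Bright histone genes hug 0, most but not all dim ones lie below it with the grey cloud, and 20 of the 21 S phase genes lie above 0.

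Neighbouring H2A and H2B genes often lie head to head around a shared promoter. The gene table held 14 neighbouring H2A and H2B pairs, of which 10 were such divergent pairs by their strands. Of these 10, 4 had both genes tested, and in 2 of the 4 the partners had opposite signs. Pairs with a strand missing were not classed, among them H2ac20 and H2bc21, which differed by 0.08 and 0.28. H2ac23 and H2bc23, around the 167 bases printed above, differed by 0.33 and -1.32. H2ac22 and H2bc22 differed by 0.20 and -0.55. H2ac15 and H2bc15 differed by 0.11 and 0.42, and H2ac1 and H2bc1 by 0.09 and 0.24. In both discordant pairs the H2B probe was the dim one, at a mean signal below -1. By cluster, the medians were 0.09 for the 36 tested Hist1 genes, 0.04 for 6 of Hist2, 0.15 for 2 of Hist3 and 0.05 for Hist4h4 (H4f16).

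Factors that make and process histone mRNA were higher in 19 of 26 measured, with a median of 0.17 and none called by limma. Both Rb-deficient arrays lay above both wild-type arrays for 13 of 26 (50%, against 15.3% of all genes). Cdk2, the kinase partner of cyclin E, had -4.14 and -3.93 in Rb-deficient islets, against -4.80 and -5.05 in wild-type islets, a difference of 0.89 (SE 0.21). Ccne1, which encodes cyclin E1, had 0.65 and 0.92 in Rb-deficient islets, against 0.18 and 0.29 in wild-type islets. Npat, the coactivator that they phosphorylate, had -0.98 and -0.89 in Rb-deficient islets, against -1.35 and -1.40 in wild-type islets. The Cdk2 difference was 0.18 with normexp and 1.89 with quantile normalization. The groups of all 3 were separated, and Fip1l1, a subunit of the general cleavage and polyadenylation machinery, was 0.43 higher. These genes were named for the smallest p values of the list, so their separated groups follow in part from that choice. Slbp and Casp8ap2, which encodes the FLASH protein of histone mRNA processing, were chosen after their values were seen. Slbp had -1.62 and -0.82 in Rb-deficient islets, against -1.99 and -1.62 in wild-type islets, and Casp8ap2 differed by 0.54 (SE 0.28). Without Rb-deficient array 2 the differences were 0.19 for Slbp and 0.26 for Casp8ap2. With the probes of a gene averaged they were 0.37 for Slbp, 0.31 for Casp8ap2 and 0.29 for Fip1l1. With normexp the Casp8ap2 difference was 0.27.

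Histone chaperones and import factors, which carry new histones to DNA, were higher in 18 of 22, with a median of 0.30 and 13 of 22 (59.1%) separated upward, where 41.9% of all genes were higher and 15.3% separated upward. Asf1b, a chaperone of H3 and H4 tied to dividing cells, had -1.38 and -0.17 in Rb-deficient islets, against -2.65 and -2.70 in wild-type islets, a difference of 1.90 (SE 0.47), or 1.21 with normexp. Dnajc9, a co-chaperone of H3 and H4, had 3.28 and 3.76 in Rb-deficient islets, against 2.60 and 2.81 in wild-type islets, and Nasp, which holds the reserve of soluble H3 and H4, had 1.01 and 1.48 in Rb-deficient islets, against 0.40 and 0.71 in wild-type islets. Tonsl, a reader of new H4 on replicated DNA, was 0.48 higher. Chaf1a, the large subunit of the CAF-1 complex that loads H3 and H4 behind the fork, was 0.97 higher, and Hat1, which acetylates new H4, 0.58, both chosen after their values were seen. Without Rb-deficient array 2 these were 0.43 and 0.33, and with normexp Chaf1a was 0.47 higher. Adjusted p values in the list were 0.743 or above (limma, Benjamini-Hochberg).

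Genes of the replication-independent histone variants were higher in 10 of 11, against 41.9% of all genes, with a median of 0.24. Separated upward were 3 of 11 (27.3%), against 15.3% of all genes. The list holds core histone variants, which can replace core histones at particular sites, and the linker histone genes H1f0 and H1f10. Cenpa, the H3 variant of centromeres, had -3.28 and -2.23 in Rb-deficient islets, against -3.09 and -5.12 in wild-type islets, a difference of 1.35 (SE 0.84) with overlapping groups. It was 2.36 without wild-type array 1, 0.33 without wild-type array 2 and 0.44 with normexp. Macroh2a1, an H2A variant of silent chromatin, had 3.27 and 3.51 in Rb-deficient islets, against 2.97 and 3.09 in wild-type islets, a difference of 0.36 (SE 0.20). Macroh2a2 and the H3.3 gene H3f3a were 0.24 and 0.33 higher, but 0.10 and 0.07 without Rb-deficient array 2. With its probes averaged H3f3a was 0.21 higher. H2az1 and H2ax, chosen after their values were seen, were 0.16 and 0.22 higher. The median of the variants was 0.09 without wild-type array 1 and 0.07 without Rb-deficient array 2, against 0.45 without Rb-deficient array 1.

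On the same arrays 20 of 21 S phase DNA replication genes were higher, with a median of 1.02, a 2.03-fold difference, and 18 of 21 (85.7%) were separated upward, against 15.3% of all genes. The shift from the wild-type mean was 0.76 on Rb-deficient array 1 and 1.25 on array 2, where the histone genes stood at 0.01 and 0.17. Mcm3, a subunit of the replicative helicase, had 0.98 and 2.02 in Rb-deficient islets, against -1.27 and -1.26 in wild-type islets. Mcm6, Cdt1, which loads that helicase, and Prim1, the primase, were higher by 2.50, 1.98 and 1.51. Of 18 mitosis genes listed 15 passed the filter, and 5 of these (Cdk1, Bub1, Aurkb, Nusap1 and Cenpf) passed it through the Rb-deficient arrays alone, so no count or median is given for the list. Cenpe, Ccnb2 and Birc5 were well above background on all arrays. The kinesin gene Cenpe was 2.01 higher, or 1.13 with normexp. The cyclin gene Ccnb2 was 1.85 higher and Birc5, which encodes survivin, 1.89. The kinase gene Cdk1 had -3.25 and -2.38 in Rb-deficient islets, against -4.90 and -5.68 in wild-type islets, the last value not well above background. Its difference was 2.48, or 0.68 with normexp. None of these genes was called by limma with Benjamini-Hochberg adjustment (lowest adjusted p 0.513). The difference between these lists and the histone genes was not tested, and both lists share the arrays with them. Of 15 S phase genes with a mean signal between -1 and 3, all were higher, with a median of 1.02, where the 15 histone genes of that range had a median of 0.14.

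**Figure D3:**
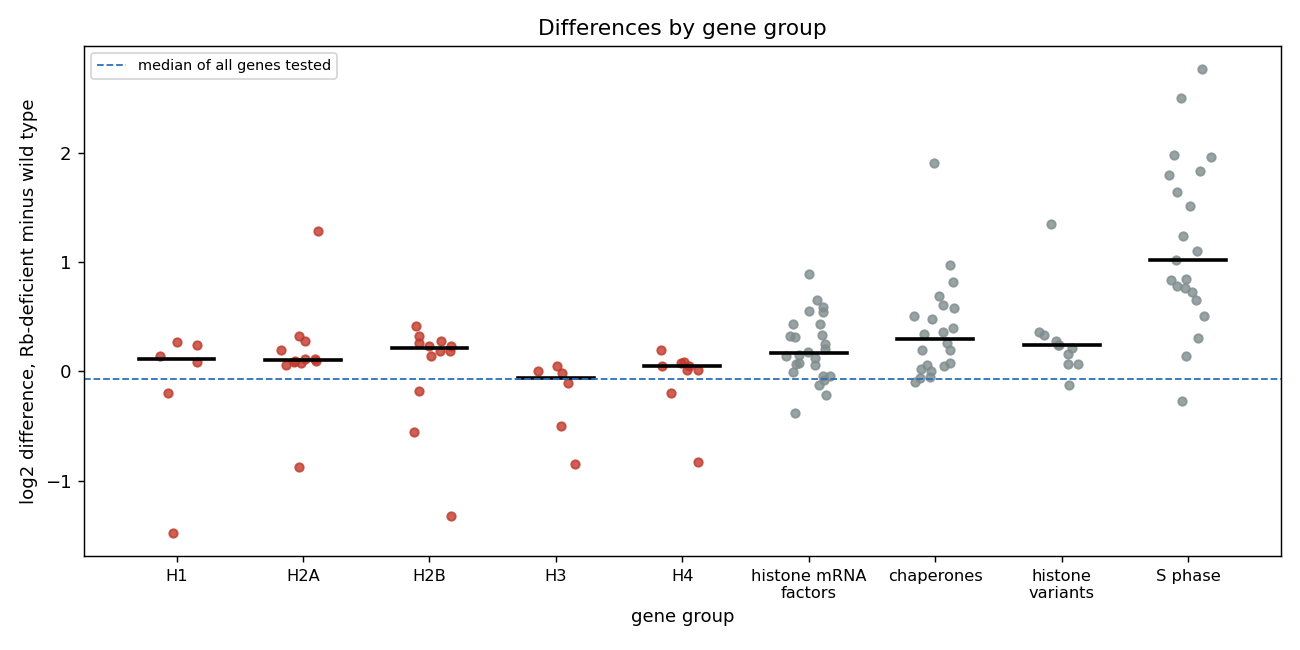
Log2 difference (Rb-deficient minus wild type) of each tested gene, by group, with the group's median as a black bar and the median of all genes as a dashed line. The 5 histone classes (red) have medians between -0.06 and 0.21, histone mRNA factors, chaperones and variants between 0.17 and 0.30, and S phase genes 1.02.

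The histone median lay below the S phase median under each of the 12 alternatives run, but some of them could not change that order. Median scaling and the deposited value table only shift each array by a constant, and the replicate block leaves each difference as it was. All alternatives use the same arrays. The histone median lay between -0.06 and 0.20 in 11 of the 12 and was 0.52 with scaling to the array median, which moved the median of all genes to 0.37. The S phase median lay between 0.76 and 1.46 in all 12.

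**Figure D4:**
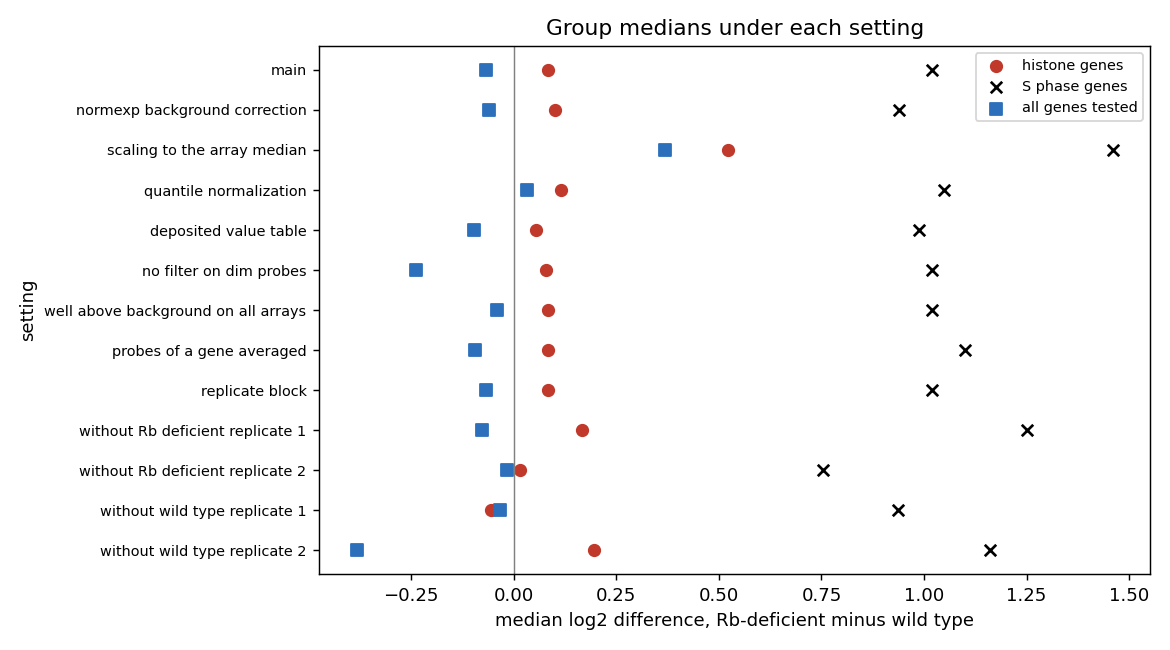
Median log2 difference (Rb-deficient minus wild type) of the histone genes, the S phase genes and all genes tested under the main setting and 12 alternatives. The histone median stays within 0.6 of the median of all genes in every row, and the S phase median stays above 0.7.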

How the data were processed

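RNA of isolated islets from 4 mice was hybridised to 4 Agilent arrays of a design annotated on mm9. The deposited intensity values came from Feature Extraction 12.0.3.1, per the file headers, which subtracted background and spatial trend and did not scale arrays to one another. Per the labels, RNA was amplified with a Pico WTA kit. Its primers are not given in the sources used here, which matters for mRNAs without a poly(A) tail. The quality marks (0 or 1, well above background) came from the deposited files.

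Control spots and, on each array, 64 to 93 outlier spots were dropped. The log2 processed intensity was then reduced by the 75th percentile of all non-control spots (364 and 488 units on Rb-deficient, 361 and 411 on wild-type arrays) and averaged by probe. Accessions named 32994 of 56605 probes (58.3%) in a RefSeq table of GRCm38.p6. The brightest probe stood for a gene. Differences were fitted with limma 3.58.1 in R 4.3.3 (lmFit, eBayes, two-sided, no covariates, 2 residual degrees of freedom and a prior worth 1.82), with Benjamini-Hochberg adjustment over 26378 genes and a threshold of 0.05. The code was tested on simulated data. An exact permutation test of 2 against 2 arrays cannot give a p below 0.333. The titles do not say that replicate numbers pair mice.

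Named with values are Rb1, up to 3 histone genes per class and direction by size of difference, and the 4 smallest p values of each other list, and any other gene given with values was picked after its values were seen. The members and lists were chosen with earlier results of these data known. The alternatives were normexp, median scaling, quantile normalization, the deposited value table, 2 filters, averaged probes, the replicate number as a block and each array left out. The scanner files hold no mean signal, so normexp used the median signal. The value table, whose intensities the authors made, equalled the processed signal times 2.49 and 1.74 (Rb-deficient) and 2.44 and 2.15 (wild type), with column medians of 188.3 and 157.33, and of 220.06 and 180.7. Its scale is linear and not centred, and the rule for its constants is not known.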

Additional observations from a re-analysis of the deposited data

How the results depend on the processing

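No histone gene was called under 11 of the 12 alternatives, and 1 (H1f6) was without wild-type array 2, where limma called 4090 of all genes and 0 without any other single array. Scaling to the array median called 480 genes, 234 of them higher, none a histone gene, and moved the median of all genes to 0.37. The medians then stood at 0.522 for all histones, 0.548 for H1, 0.543 for H2A, 0.649 for H2B, 0.377 for H3, 0.486 for H4, 0.604 for histone mRNA factors, 0.738 for chaperones and 0.676 for variants. That scaling adds a constant to each array. With single arrays left out the medians ranged from -0.0562 to 0.196 for all histones, -0.0893 to 0.156 for H1, -0.0655 to 0.279 for H2A, 0.128 to 0.292 for H2B, -0.236 to -0.00287 for H3, -0.0562 to 0.128 for H4, 0.11 to 0.264 for mRNA factors, 0.238 to 0.373 for chaperones and 0.0737 to 0.451 for variants. Some single genes turned sign, most of them near 0, with H3c1 (-0.505) and H1f6 (-1.48) the farthest from it. With normexp these were H3c7 -0.0268, H1f1 -0.0647 and H4c9 -0.0505, with quantile normalization H1f3 0.0452, H3c4 -0.00938, H3c1 0.459, H4c8 0.177 and H4c14 -0.00634, with median scaling H1f3 0.236, H2bc18 0.26, H3c13 0.331, H4c8 0.239 and H3c3 0.424 and with the deposited value table H3c7 -0.0288, H4c14 -0.0164 and H4c9 -0.0173. With an array left out, the genes that turned sign at least once ranged as follows: H2bc18 -0.382 to 0.0269, H3c7 -0.261 to 0.263, H4c9 -0.106 to 0.13, H1f2 -0.274 to 0.806, H1f5 -0.148 to 0.631, H3c4 -0.141 to 0.246, H3c13 -0.322 to 0.109, H4c8 -0.496 to 0.0987, H2aw -0.0655 to 0.29, H2ac15 -0.054 to 0.277, H2ac12 -0.09 to 0.288, H2ac1 -0.0898 to 0.27, H2ac20 -0.0855 to 0.254, H2ac10 -0.1 to 0.252, H2ac19 -0.086 to 0.203, H2bu2 -0.603 to 0.979, H3c3 -0.0891 to 0.0605, H4c14 -0.0562 to 0.0829, H2ax -0.017 to 0.451, H1f4 -0.444 to 0.719, H1f6 -3.47 to 0.514, H4c3 -0.0614 to 0.231, H4c12 -0.0353 to 0.185, H2bc7 -0.178 to 0.643, H4f16 -0.0617 to 0.161, H4c4 -0.0317 to 0.128, H1f3 -0.731 to 0.328, H1f1 -0.457 to 0.623 and H2bc6 -0.0643 to 0.343. The cause of these turns was not tested. With the replicate number as a block the histone median stayed 0.0844 and 0 genes were called. Deviations of same-numbered arrays correlated at 0.295 across genes, a hint from the data only, and no call changed. Dropping the filter, requiring signal on all arrays or averaging probes turned no named gene. Averaging probes did lower the differences of Slbp to 0.368, Casp8ap2 to 0.312, Fip1l1 to 0.286 and H3f3a to 0.212. Low signal limits the 14 histone genes below -1.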
